A study of Rattus norvegicus with 8 samples.

Results

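The genes described here are the apoptosis genes of rat liver, a list of 43 symbols that holds caspases, the BCL2 family, inhibitor of apoptosis proteins, factors released from mitochondria, death receptors with their ligands and adaptors, DNA fragmentation factors, and stress and p53 effectors. A member was found by symbol among probe sets that carry exactly 1 symbol in the platform annotation. That symbol was first replaced by the RefSeq symbol of the same gene identifier, where there was one. The member's brightest probe set, by the mean over all 8 arrays, stood for the gene. This gave 41 measured members of 14217 genes in all. Bax, whose probe set carries more than 1 symbol, and Pmaip1 were not analysed here.

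Apoptosis is a cell's ordered self-destruction, and it has an intrinsic and an extrinsic route. In the intrinsic route, BH3-only proteins sense stress and free the effectors of the BCL2 family to open the outer mitochondrial membrane, while pro-survival BCL2 proteins hold them back. Cytochrome c then assembles the apoptosome with APAF1 and caspase-9, and other released proteins disarm the inhibitors of apoptosis. In the extrinsic route, death receptors of the TNF receptor family recruit FADD and caspase-8. Hepatocytes are known as cells in which the extrinsic signal needs BID to engage the mitochondria, and which are easily killed through FAS. Many of these proteins are controlled by cleavage, release or binding, which an mRNA array does not measure.

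The study asked how a diet without iron alters liver gene expression. All animals were male rats of the outbred Sprague-Dawley stock, which arrived at 3 weeks and are labelled as 7 weeks of age. The control diet followed the AIN93G recipe with Avicel, a refined cellulose, in place of cellulose, and the iron-deficient diet was the same without its ferric citrate. Livers were taken on day 17 of the diet, 1.5 h into a meal, after both groups had been moved to daytime feeding. At that point haemoglobin in the iron-deficient group was 42% of that in the control group, per the series' design text. Of 7 rats on the iron-deficient and 6 on the control diet, 4 livers per diet are represented, each labelled as a biological replicate on an Affymetrix rat array.

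The deposited values were taken to be log2, as their range shows, and ran from 5.32 to 16.1. Differences between arrays in these values appear compressed, by amounts that seem to differ from one probe set to the next. Over all genes the within-group SD ran from 5.77e-09 to 1.97, with a median of 8.72e-06. The step behind this is not known. A deposited difference is thus not read as a fold change, and its size is not compared between genes. The median absolute difference between diets was 4.49e-06 over all probe sets. Each value below is therefore given as its distance from the control mean of that gene in within-group SDs, and each difference (iron-deficient minus control) with its SE on the deposited log2 scale and as a standardised difference, that is, in units of the gene's within-group SD. Each 95% interval below is limma's interval of the difference, divided by that SD as if the SD were known. It leaves out the uncertainty of the SD used for scaling. Precision is limited by the 4 arrays per diet. Tfrc, the receptor that brings transferrin-bound iron into cells, was 0.0373 ± 0.00145 higher (SE, n = 4 per diet, limma adjusted p = 0.0012), with no overlap between the diets. Hamp, which encodes the iron hormone hepcidin, read 6.98, 10.58, 6.99 and 6.93 in iron-deficient replicates 1 to 4 and 16.01, 15.99, 15.99 and 16.10 in the controls (limma adjusted p = 0.0735), so iron-deficient replicate 2 stood apart from its group. As a check of the tissue, all 11 measured hepatocyte markers lay above the arrays' 75th percentile, with means from 10.5 to 15.

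No apoptosis gene passed the threshold of an adjusted p of 0.05 (limma, Benjamini-Hochberg over 31042 probe sets), which 6 of all 14217 genes did (0.0422%). The smallest adjusted p of a member was 0.0735, for Htra2. At an unadjusted limma p under 0.05 there were 5 members of 41, or 12.2%, against 13.2% of all genes. Gadd45b and Bcl2l11 were the 2 that read higher, where 5.74% of all genes did, and Htra2, Casp8 and Gadd45a were the 3 that read lower, where 7.50% of all genes did. The diets did not overlap in the same 3 lower genes, or 7.32% of the members, against 7.82% of all genes. In that count 4.40% of all genes were lower and 3.42% higher, and no member was higher without overlap. The members' shares thus lay near those of the genes at large.

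As deposited, 19 of the 41 read higher and 22 lower, so that 46.3% were higher, against 47% of all genes. Their median standardised difference was -0.173, against -0.0727 over all genes, and their median absolute standardised difference was 0.777 against 0.687. The members' median standardised difference was 0.656 after quantile normalisation, 0.0837 with Hamp left out of that normalisation and 0.167 after median centring. Of all genes, 55.8%, 34.2% and 90.8% read higher in these 3 settings. Median centring adds the same 5.06e-05 to the difference of every gene, so the median above 0 there does not set the members apart. In 25 members the diets differed by less than 1 within-group SD. Averaged over all members, the standardised values (centred on the mean of all arrays) ran from -0.157 to 0.046 on the iron-deficient arrays and from -0.182 to 0.383 on the control arrays, which overlap. The counts moved when single arrays were left out. Without control replicate 4 there were 9 members at an unadjusted limma p under 0.05 (22%, against 13.3% of all genes) and 7 without overlap (17.1% against 13.4%). Without iron-deficient replicate 2, which stood apart in Hamp, there were 6 of each (14.6%, against 11.5% and 11.4% of all genes). The count without overlap was 5 (12.2%) without iron-deficient replicate 1, iron-deficient replicate 4 or control replicate 1, where 12.4%, 11.4% and 13.7% of all genes did not overlap. Fewer arrays make it easier for groups not to overlap.

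**Figure D1:**
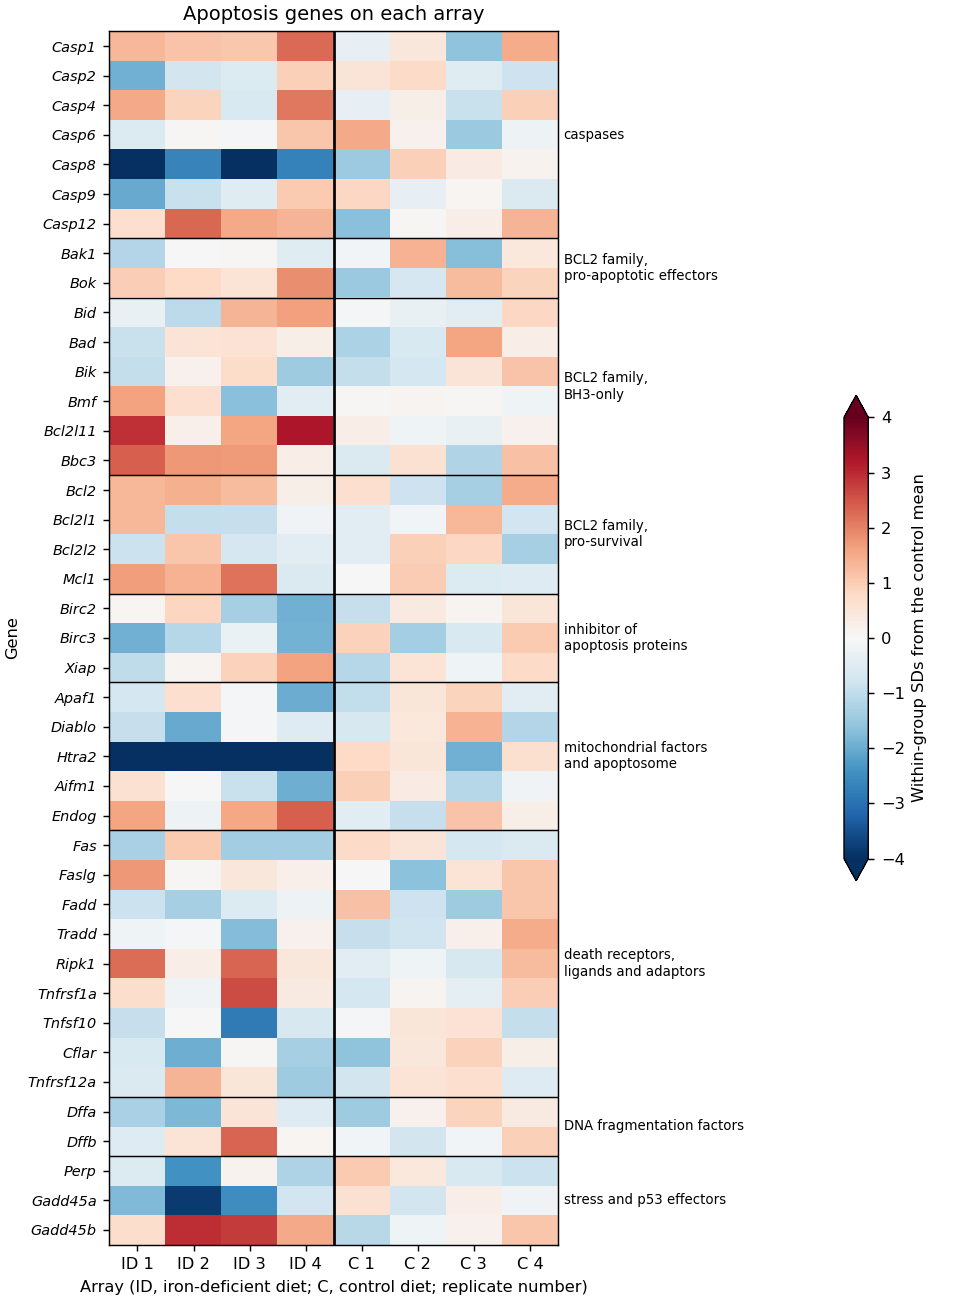
Each of the 41 measured apoptosis genes (rows, by class) on each of the 8 arrays (columns), coloured by its distance from the gene's control mean in within-group SDs, with the colour scale ending at -4 and 4. In 6 rows all 4 iron-deficient arrays lie below the control mean, with Htra2 and Casp8 lowest on average, while most rows mix both colours on both diets.

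**Figure D2:**
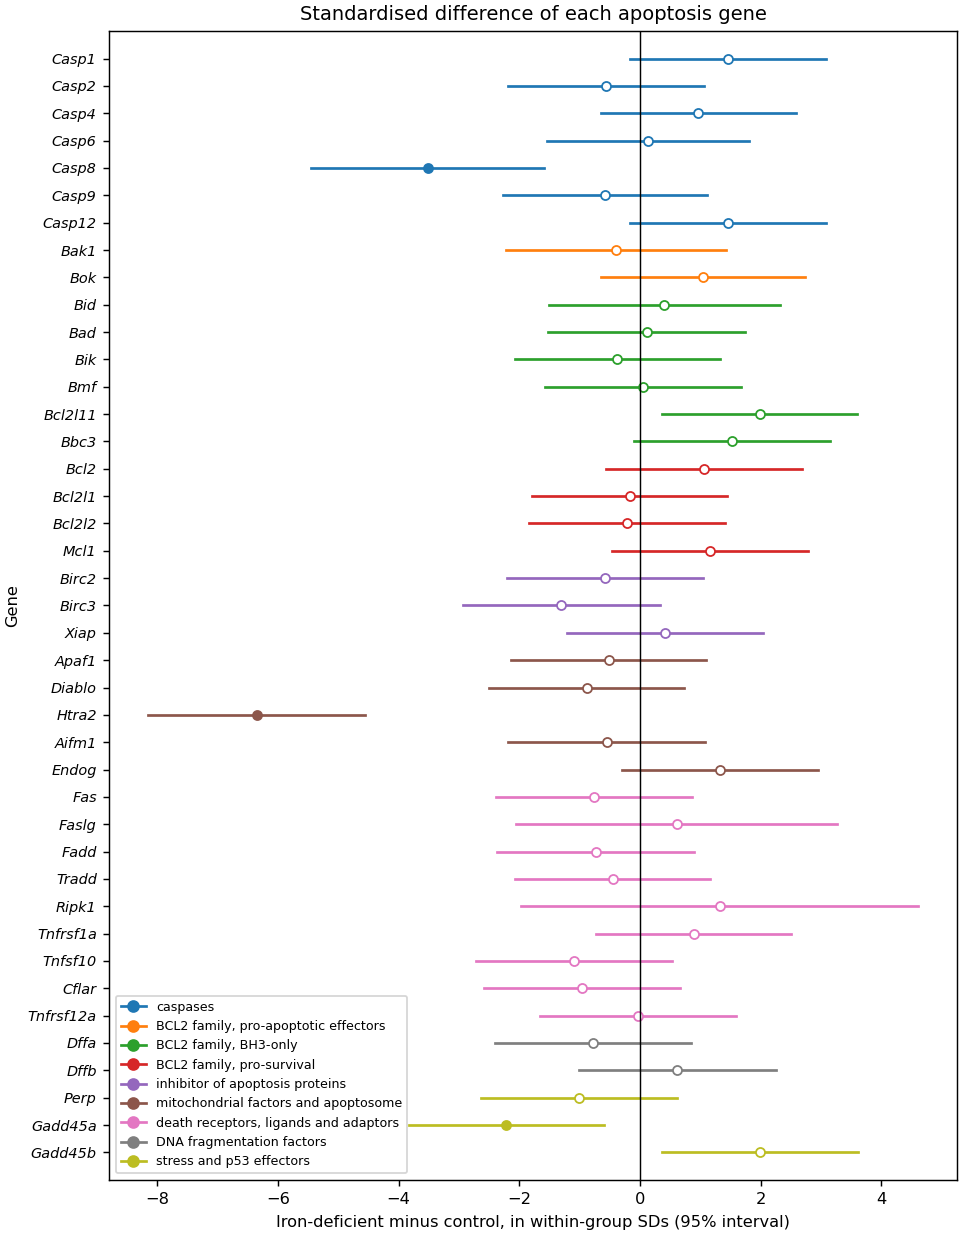
Standardised difference (iron-deficient minus control, in within-group SDs, n = 4 arrays per diet) of each apoptosis gene with its 95% interval from limma, coloured by class, and filled where the diets do not overlap. The intervals of Htra2, Casp8 and Gadd45a lie below 0 and those of Gadd45b and Bcl2l11 above it. These intervals are not adjusted for the number of genes.

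Among the mitochondrial factors, Htra2 stood furthest from the controls. It encodes a serine protease of the mitochondrial intermembrane space, which binds inhibitor of apoptosis proteins once released and which takes part in protein quality control inside the organelle. The deposited values were 8.786236, 8.786237, 8.786234 and 8.786235 in iron-deficient replicates 1 to 4, and 8.786250, 8.786250, 8.786245 and 8.786250 in control replicates 1 to 4. In within-group SDs from the control mean these are -6.13, -5.66, -6.99 and -6.63 on the iron-deficient diet and 0.809, 0.487, -1.92 and 0.627 on the control diet. All 4 iron-deficient livers lay below every control, and control replicate 3 was the lowest of its group. The difference was -1.33e-05 ± 1.58e-06, a standardised difference of -6.35 (95% interval -8.15 to -4.55), with a limma adjusted p of 0.0735. Leaving out any 1 array kept the direction, and the adjusted p lay between 0.108 and 0.231. When each gene was fitted once, on the mean over its probe sets, so that fewer features were tested, the adjusted p of Htra2, which has 1 probe set, was 0.0489. The direction depended on the scaling between arrays: the difference was 4.52e-04 after quantile normalisation, 2.25e-04 after quantile normalisation with Hamp left out and 3.73e-05 after median centring, each of them higher on the iron-deficient diet. Median centring adds the same 5.06e-05 to the difference of every gene and so turns any smaller negative difference.

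The other mitochondrial factors overlapped between diets. Diablo, whose product frees caspases from XIAP after its release, had a standardised difference of -0.885 and read below the control mean in all 4 iron-deficient livers. Apaf1, the scaffold of the apoptosome, stood at -0.521. Aifm1, a flavoprotein that supports respiratory chain assembly and moves to the nucleus in caspase-independent death, stood at -0.553. Endog, a mitochondrial nuclease, was the 1 member of the class that read higher, at 1.33 SDs (4.12e-04 ± 2.10e-04), with 3 iron-deficient livers above every control. Averaged over the 5 genes of the class, the standardised values ran from -1.04 to -0.421 on the iron-deficient arrays and from 0.528 to 0.858 on the control arrays. That separation came with Htra2, since over the remaining 4 genes the ranges were -0.433 to 0.213 and -0.291 to 0.652 and overlapped. Diablo, lower as deposited, read higher under each of the 3 other scalings, and after quantile normalisation by 6.97e-04 with a limma adjusted p of 0.00722, in a setting where 5.47% of all genes passed the threshold. Over the other settings its adjusted p reached up to 0.964.

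Of the 7 caspases, 4 read higher and 3 lower, with a median standardised difference of 0.128. Casp8, the initiator protease of the death receptors, lay at -4.62, -2.68, -4.06 and -2.70 SDs from the control mean in iron-deficient replicates 1 to 4 and at -1.44, 0.952, 0.343 and 0.143 in the controls. Each iron-deficient liver was below each control. The difference of Casp8 was -5.56e-06 ± 1.27e-06, or -3.51 within-group SDs (95% interval -5.44 to -1.59), with a limma adjusted p of 0.215. Casp8 has a second probe set, which differed by 1.97e-06 in the other direction, and the probe sets correlated at -0.407 over the 8 arrays, a description only. After median centring, with its shared constant, the first probe set read higher, by 4.5e-05.

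Casp1, Casp4 and Casp12, the caspases best known for inflammation and for stress of the endoplasmic reticulum, all read higher, and none reached an unadjusted p under 0.05. Casp1, which matures interleukin-1 beta, stood at 1.46 SDs and above the control mean in all 4 iron-deficient livers. Casp12 stood at 1.46 SDs as well, also above the control mean in all 4, and kept that direction after quantile normalisation with and without Hamp. Casp4, which senses bacterial lipopolysaccharide inside cells, stood at 0.969. Casp1 read lower after quantile normalisation with and without Hamp, at -2.29e-04 and -2.54e-04. Among the others, Casp9, the initiator bound by APAF1, stood at -0.585, Casp2 at -0.561 and Casp6, an executioner, at 0.128.

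In the BCL2 family, 8 of 12 measured members read higher, with a median standardised difference of 0.260. By role, 5 of 6 BH3-only genes, 1 of 2 effectors and 2 of 4 pro-survival genes read higher. Bcl2l11 encodes BIM, a BH3-only protein that binds every pro-survival family member and is known as a target of FOXO factors. It lay at 2.93, 0.201, 1.57 and 3.22 SDs from the control mean in iron-deficient replicates 1 to 4, and at 0.277, -0.157, -0.292 and 0.172 in the controls. Iron-deficient replicate 2 fell among the controls and the other 3 livers lay above all of them. The difference was 4.30e-04 ± 1.46e-04, or 1.98 SDs (95% interval 0.362 to 3.60), with a limma adjusted p of 0.358. Bcl2l11 kept its direction under both quantile settings and with every array left out. Both of its further probe sets read higher, by 4.48e-07 and 7.25e-06.

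Bbc3, which encodes the p53-induced BH3-only protein PUMA, stood at 1.52 SDs (1.68e-05 ± 7.50e-06), above the control mean in all 4 iron-deficient livers, but it read lower after quantile normalisation, by -2.82e-05. The remaining BH3-only genes lay close to 0. Bid, the link between the death receptors and the mitochondria, stood at 0.404, Bad, a sensor of growth factor signals, at 0.115, Bmf at 0.0502 and Bik at -0.374.

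Bok and Bak1 are the measured effectors, which form pores in the outer mitochondrial membrane. Bok lay at 0.980, 0.800, 0.547 and 1.86 SDs from the control mean in iron-deficient replicates 1 to 4 and at -1.47, -0.683, 1.27 and 0.888 in the controls, a standardised difference of 1.05. Bak1 lay at -1.18, 0.0121, 0.0527 and -0.483 against -0.110, 1.39, -1.70 and 0.417, a standardised difference of -0.400. The controls spanned every iron-deficient value of Bak1, and all but that of iron-deficient replicate 4 for Bok.

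Of the pro-survival genes, Mcl1, a short-lived protein on which hepatocytes are known to depend, lay at 1.67, 1.40, 2.18 and -0.593 SDs in iron-deficient replicates 1 to 4 and at 0.0218, 1.02, -0.534 and -0.505 in the controls. Its standardised difference was 1.16, with 3 livers above every control and iron-deficient replicate 4 below every control. Bcl2, the founding member, lay at 1.32, 1.41, 1.27 and 0.242 against 0.680, -0.821, -1.34 and 1.48, a standardised difference of 1.06 within the range of the controls. Bcl2l1, which encodes BCL-XL, the other main protector of hepatocytes, stood at -0.173, and Bcl2l2 at -0.213. Both probe sets of Mcl1 and all 3 of Bcl2l1 shared a sign within the gene. Over the 8 arrays the further probe set of Mcl1 correlated with the first at 0.469, and those of Bcl2l1 at -0.715 and 0.416.

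The inhibitor of apoptosis proteins bind or ubiquitinate caspases and signalling complexes. Birc3, one of the ligases of TNF receptor complexes, lay at -1.91, -1.15, -0.254 and -1.89 SDs in iron-deficient replicates 1 to 4 and at 0.910, -1.37, -0.597 and 1.06 in the controls, a standardised difference of -1.30. Its 4 iron-deficient livers were below the control mean, and 2 of them below every control. Birc2, its close relative, lay at 0.0751, 0.847, -1.33 and -1.91 against -0.922, 0.349, 0.100 and 0.473, a standardised difference of -0.580. Xiap, the direct caspase inhibitor, stood at 0.410. Under both quantile settings Birc2 and Birc3 read higher.

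Among the 9 death receptor genes, 3 read higher and 6 lower, with a median standardised difference of -0.455, and none reached an unadjusted p under 0.05. Ripk1, the kinase that turns TNF receptor signals to survival or death, lay at 2.23, 0.272, 2.33 and 0.455 SDs in iron-deficient replicates 1 to 4 and at -0.455, -0.168, -0.655 and 1.28 in the controls. Its within-group SD, 5.80e-07, was the smallest of any member, and the standardised difference of 1.32 had a wide interval (-1.96 to 4.61). Tnfsf10, the ligand TRAIL, lay at -0.918, 0.0072, -2.84 and -0.637 against -0.0933, 0.471, 0.585 and -0.962, a standardised difference of -1.10.

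Fas and its ligand did not separate. Fas stood at -0.765, with iron-deficient replicate 2 above every control and the other 3 livers below every control, and Faslg stood at 0.609. Fas kept its lower direction under every scaling. The adaptors Fadd and Tradd stood at -0.733 and -0.455, and Cflar, the caspase-8 look-alike that blocks receptor signals, at -0.959. Tnfrsf1a, the main TNF receptor, stood at 0.890 and read higher under both quantile settings, while Tnfrsf12a, the receptor for TWEAK, stood at -0.0345.

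Of the DNA fragmentation factors, Dffb is the nuclease that cuts chromatin between nucleosomes and Dffa its inhibitor and chaperone. Dffa lay at -1.30, -1.79, 0.515 and -0.526 SDs in iron-deficient replicates 1 to 4 and at -1.42, 0.180, 0.876 and 0.368 in the controls, a standardised difference of -0.777. Dffb lay at -0.513, 0.556, 2.33 and 0.0903 against -0.116, -0.739, -0.109 and 0.964, a standardised difference of 0.616. The diets overlapped in both genes.

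The stress and p53 effectors held 2 of the 5 members at an unadjusted p under 0.05, in opposite directions. Gadd45a and Gadd45b encode small acidic proteins that are induced by DNA damage and by cytokine or growth signals, respectively, and that bind stress kinases and cell cycle regulators. The deposited values of Gadd45a were 8.636687, 8.634888, 8.636062 and 8.637531 in iron-deficient replicates 1 to 4, and 8.638739, 8.637565, 8.638420 and 8.638090 in control replicates 1 to 4. In SDs from the control mean these are -1.76, -3.84, -2.48 and -0.780 against 0.621, -0.740, 0.251 and -0.131. Every iron-deficient liver was below every control, narrowly so for iron-deficient replicate 4 and control replicate 2. The difference was -0.00191 ± 5.83e-04, or -2.21 SDs (95% interval -3.83 to -0.595), with a limma adjusted p of 0.318. It stayed negative under every scaling and with every array left out, where the adjusted p lay between 0.281 and 0.553.

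Gadd45b lay at 0.706, 2.96, 2.80 and 1.51 SDs in iron-deficient replicates 1 to 4 and at -1.10, -0.172, 0.160 and 1.12 in the controls. All but iron-deficient replicate 1 were above every control. The difference was 2.85e-05 ± 9.69e-06, or 1.99 SDs (95% interval 0.369 to 3.62), with a limma adjusted p of 0.356. Gadd45b read lower after quantile normalisation, by -9.01e-05, and with Hamp left out of it, by -1.93e-04. The third gene of the class, Perp, a p53 target found in cell junctions, stood at -1.01. The paralog Gadd45g, which is no member and was chosen after its values were seen, lay at 0.384, -2.40, -2.03 and -2.61 SDs in iron-deficient replicates 1 to 4 and between -0.302 and 0.342 in the controls, a standardised difference of -1.66.

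**Figure D3:**
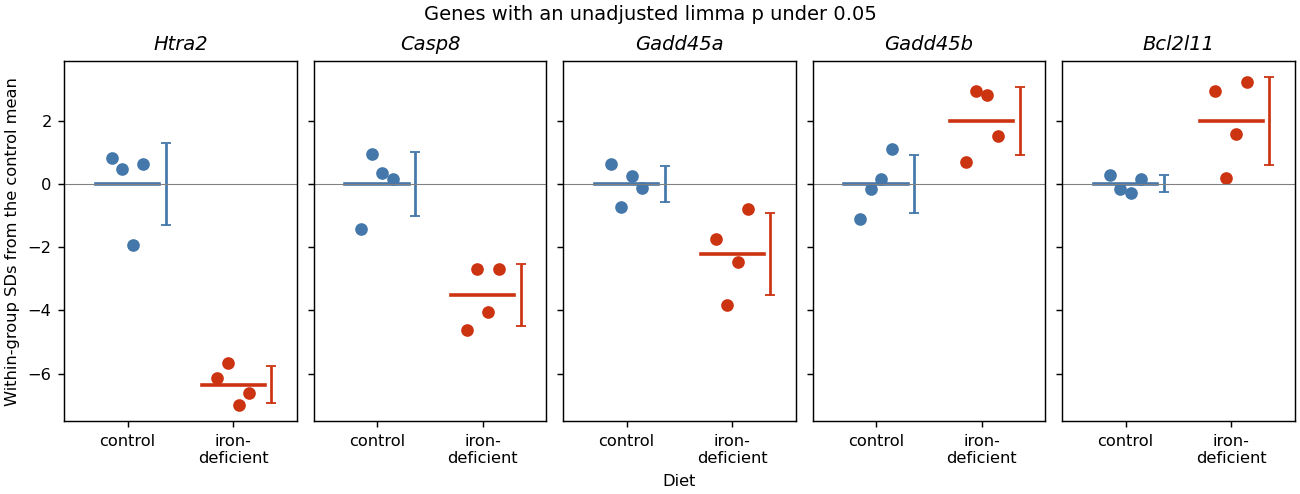
The 5 apoptosis genes with an unadjusted limma p under 0.05, with each array as a point in within-group SDs from the control mean, the group mean as a line and the SD of the group (n = 4) as a bar. Htra2, Casp8 and Gadd45a show no overlap between diets, while 1 iron-deficient liver of Gadd45b and of Bcl2l11 lies among the controls.

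The promoters of Gadd45a, Gadd45b and Bcl2l11 are shown because these genes had an unadjusted p under 0.05 and are known to answer to stress and transcription factor signals. Htra2 and Casp8 also had such a p but had no entry among the promoters used, so none is shown for them. Promoters came from RefSeq (build GRCr8, while the deposited table gives no coordinates), and 32 of the 41 measured members matched by symbol. Each sequence is the 250 bases before the annotated start, on the gene's own strand, with capitals marking every match to a searched motif. Gadd45a is at chr4:97486800-97487049 (minus strand), Gadd45b at chr7:9430719-9430968 (minus strand) and Bcl2l11 at chr3:135819792-135820041 (plus strand).
Gadd45a: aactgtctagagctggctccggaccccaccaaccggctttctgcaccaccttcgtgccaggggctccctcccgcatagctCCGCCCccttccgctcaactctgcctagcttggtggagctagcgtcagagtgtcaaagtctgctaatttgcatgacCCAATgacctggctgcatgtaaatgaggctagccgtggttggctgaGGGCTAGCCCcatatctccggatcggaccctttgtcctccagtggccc
Gadd45b: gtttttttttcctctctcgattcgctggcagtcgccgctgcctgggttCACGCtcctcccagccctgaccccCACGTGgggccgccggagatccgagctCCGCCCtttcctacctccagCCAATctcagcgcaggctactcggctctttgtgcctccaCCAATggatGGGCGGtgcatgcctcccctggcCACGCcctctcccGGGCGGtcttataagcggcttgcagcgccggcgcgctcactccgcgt
Bcl2l11: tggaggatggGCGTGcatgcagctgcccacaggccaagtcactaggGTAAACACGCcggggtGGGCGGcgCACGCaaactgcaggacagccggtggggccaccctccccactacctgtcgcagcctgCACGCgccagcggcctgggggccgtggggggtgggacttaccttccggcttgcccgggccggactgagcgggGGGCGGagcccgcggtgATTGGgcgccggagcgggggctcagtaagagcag

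The motifs were searched on both strands: GGGCGG as the GC box, the CCAAT box by those letters, TATAAA as the TATA box, ACGTG or else GCGTG as the hypoxia response core, TGANTCA as the AP-1 motif, GTAAACA as the FOXO element, and the p53 half-site and NF-kB site by their consensus. A palindrome such as CACGTG counts on both strands. In Gadd45a the capitals are a GC box, a CCAAT box and a p53 half-site that begins 48 bases before the start. Gadd45b holds 3 GC boxes, 2 CCAAT boxes, a CACGTG and 2 GCGTG cores. Bcl2l11 holds 4 GCGTG cores, 1 of which overlaps its FOXO element, with 2 GC boxes and a CCAAT box. These are matches of letters, not sites shown to be bound.

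Over the 32 member promoters, 68.8% held a GC box, against 54.2% of 11733 promoters of genes on the array and 32.4% of all 27456 promoters. The FOXO element was in 9.38% (Bad, Bcl2l11 and Casp12), against 2.16% and 3.25%, and the AP-1 motif in 12.5% (Birc2, Diablo, Fas and Perp), against 4.84% and 6.36%. The p53 half-site was in 6.25% (Cflar and Gadd45a), against 5.88% and 6.56%, and the NF-kB site in 3.12% (Mcl1), against 4.28% and 3.53%. The hypoxia core was in 25% as ACGTG and in 40.6% as GCGTG, against 21% and 41% of the genes on the array, and 16.9% and 27.2% of all promoters. The CCAAT box was in 31.2% and the TATA box in 9.38%, against 35.1% and 8.06%, and 34.3% and 13.1%. The member promoters had a median GC content of 57.6%, against 52% of all promoters. It was not set against the promoters of genes on the array.

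Probe sets of the same gene gave a measure that the choice of the brightest did not use. There were 16 members with more than 1 probe set, with 20 further probe sets, of which 14 had the sign of the first and none had an unadjusted limma p under 0.05. All probe sets shared 1 sign in 11 of these genes, among them Bcl2l11, Mcl1, Bid, Xiap, Apaf1, Fas and Perp. In the other 5, which were Casp2, Casp8, Casp9, Bok and Cflar, they did not. Across the 8 arrays 3 of the 20 correlated above 0.5 with the first probe set and 6 correlated below 0.

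The direction of many members also depended on how the arrays were scaled. As deposited 19 of 41 read higher, after quantile normalisation 29 (70.7%, against 55.8% of all genes), with Hamp left out of it 23 (56.1% against 34.2%) and after median centring 38 (92.7% against 90.8%). Quantile normalisation left 514 of all genes, and 1142 with Hamp left out, with a difference of 0, which were counted as neither higher nor lower and held no member. As deposited and under both quantile settings, 13 members read higher throughout (31.7%, against 18.2% of all genes) and 7 lower (17.1% against 22.3%), the latter being Casp8, Casp9, Bik, Fas, Fadd, Tnfrsf12a and Gadd45a. The constant that median centring adds turned 5 of these 7, all but Fas and Gadd45a, which left 15 members with 1 direction under all 4 scalings. That constant cannot turn a member that reads higher as deposited, as 13 of these 15 did. Of the 41, 31 kept their direction with every array left out in turn, and 12 kept it under both kinds of change.

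**Figure D4:**
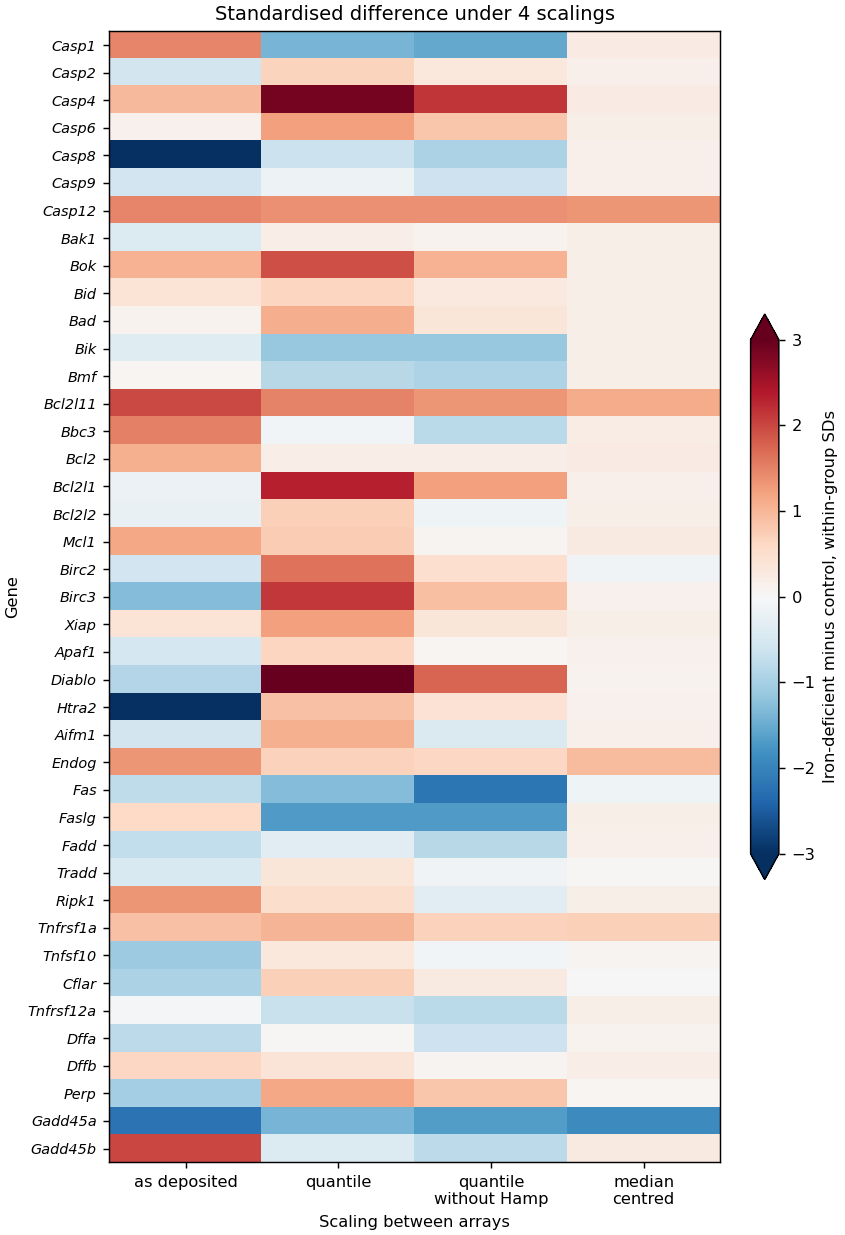
Standardised difference (iron-deficient minus control, in within-group SDs) of the 41 apoptosis genes under 4 scalings between arrays, with the colour scale ending at -3 and 3. Casp12, Bcl2l11 and Gadd45a keep 1 colour across all columns, while Htra2, Diablo and Birc3 change from blue to red.

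The wider pathway was read from 117 measured genes of 144 listed by role. None passed the adjusted threshold in limma as deposited, with a smallest adjusted p of 0.151. At an unadjusted p under 0.05 there were 29 (24.8%, against 13.2% of all genes), of which 13 read higher and 16 lower, and in 15 (12.8%, against 7.82%) the diets did not overlap, 8 of them higher. The first count was 16 without control replicate 2 (13.7%, against 10.2% of all genes) and 19 without control replicate 3 (16.2% against 9.77%). It was 23 after quantile normalisation, where the share was below that of all genes (19.7% against 20.4%). With Hamp left out of that normalisation it was 18 (15.4% against 11.6%), and after median centring 6 (5.13% against 2.16%). As for the members, about as many read higher as lower, 53 and 64, with a median standardised difference of -0.196.

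Some groups of that list are close to the members described above. Of 8 inflammasome and pyroptosis genes, 4 (50%) had an unadjusted limma p under 0.05, against 13.2% of all genes. The same 4 did not overlap between the diets, against 7.82% of all genes. The cytokine Il1b, a substrate of caspase-1, stood at -3.13 SDs, and Gsdmd, the pore-forming protein that inflammatory caspases cut, at -2.10, whereas Il1a stood at 1.79 and Il18 at 1.65. Il1b read higher after median centring and Gsdmd under both quantile settings. In the NF-kB list of 10 genes the kinases Chuk and Ikbkb, partners in 1 complex, stood at 2.57 and -2.50, and Chuk read lower after quantile normalisation without Hamp, by -0.00436 with a limma adjusted p of 3.43e-12. Vdac3, named below, passed the adjusted threshold in that setting as well, at -0.0014 (limma adjusted p = 2.1e-09), also opposite to its deposited direction. In that setting each of the pair had 1 distinct value within each diet, so that no spread was left within the groups.

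Bnip3, a mitochondrial BH3-like protein of mitophagy and a known hypoxia target, stood at 2.49 SDs. It was the 1 of 17 further BCL2-related genes without overlap (5.88%, against 7.82% of all genes). It lay at 1.86, 1.05, 2.90 and 4.17 SDs in iron-deficient replicates 1 to 4 and between -0.586 and 0.386 in the controls (limma adjusted p = 0.272). Of 30 further death receptor genes, Dap stood at 3.36, Tnfrsf11b, a decoy receptor for TRAIL and RANKL, at 2.87, Tnfrsf25 at -2.36 and Dapk3 at -2.31. Among 19 p53 regulators and targets, 4 had an unadjusted limma p under 0.05 (21.1%, against 13.2% of all genes). All 4 read lower, where 7.50% of all genes did, with Plk2 without overlap at -2.48. Lmnb2, a nuclear lamin, stood at -3.69 of 18 execution genes, Api5, an apoptosis inhibitor, at 2.55 and Vdac3, a channel of the outer mitochondrial membrane, at 1.88. Lmnb2 read higher after median centring, Dapk3 higher under both quantile settings, and Dap, Api5 and Vdac3 lower after quantile normalisation without Hamp.

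**Figure D5:**
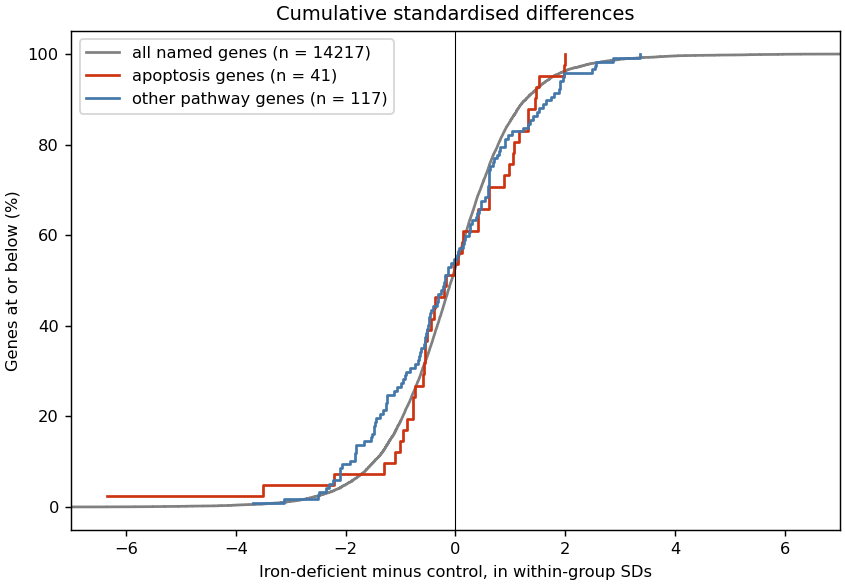
Cumulative share of genes (percent, vertical axis) at or below each standardised difference (iron-deficient minus control, in within-group SDs, horizontal axis) for the 41 apoptosis genes, 117 other pathway genes and all 14217 genes, with the horizontal axis ending at -7 and 7. The 3 curves cross 0 at similar heights, with 22 of the 41 apoptosis genes below 0.

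The mean values of the endothelial and of the stellate cell markers did not overlap between the diets. More cells of a type and more RNA per cell, or fewer and less, cannot be told apart in whole liver. Of 11 endothelial markers, 9 read higher (81.8%, against 47% of all genes). At an unadjusted limma p under 0.05, 7 were higher (63.6% of the list, against 5.74% of all genes). Egfl7 stood at 5.28, Flt1 at 5.09, Stab2 at 4.10 and Fcgr2b at 3.66 SDs. The 2 lower markers, named after their values were seen, were Stab1 at -1.31 and Kdr at -0.824. Over all 11 the mean standardised value ran from 0.487 to 1.70 on the iron-deficient and from -1.55 to -0.715 on the control arrays. Of 11 stellate cell markers, 7 read higher (63.6%, against 47% of all genes). Among them, Timp1 stood at 3.88, Lrat at 3.70, Dcn at 2.99 and Col3a1 at 2.92. The 4 lower ones, also named after their values were seen, were Ngfr at -0.794, Col1a1 at -0.354, Des at -0.318 and Col1a2 at -0.0390. Over all 11 the mean ran from 0.402 to 0.860 against -0.987 to -0.451. No marker named here passed the adjusted threshold as deposited. In limma Flt1 passed it after quantile normalisation (adjusted p = 0.0222), after median centring (0.0201) and with a gene's probe sets averaged (0.0476), and Lrat passed it after quantile normalisation (0.00247), also with Hamp left out (0.0264). Egfl7 passed it with probe sets averaged (0.0445) and Stab2 after median centring (0.0415). Of all genes, 0.0422% passed as deposited and 5.47% after quantile normalisation. With Hamp left out 0.366% of all genes passed, after median centring 0.267% and with probe sets averaged 0.309%. Of 12 Kupffer cell and macrophage markers, 11 read higher (91.7%, against 47% of all genes), with Lyz2 at 2.84 and Mrc1 at 2.82. Aif1 was the 1 lower marker, at -0.281, and the means ran from -0.547 to 1.21 against -1.03 to 0.218.

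Other marker lists separated the diets less. For their counts, 47% of all genes read higher as deposited. Of 8 neutrophil markers 7 read higher, with means from -0.141 to 0.678 against -0.790 to 0.439, and 5 of the 8 lay below the arrays' 25th percentile. Of 16 lymphocyte markers 7 read higher and none lay above the 75th percentile, with means from -0.308 to 0.296 against -0.765 to 0.863. Of 9 erythroid markers 6 read higher, Ahsp, a chaperone of globin, at 2.93, with means from -0.780 to 1.08 against -0.984 to 1.18. Of the 3 lower erythroid markers, which were chosen for naming after their values were seen, Gata1, a transcription factor of red cell precursors, stood at -1.93 (an unadjusted limma p under 0.05, with overlap between the diets), Hba-a3 at -0.920 and Hbb at -0.472. For 7 cholangiocyte markers, 4 of them higher, the means were -0.276 to 0.663 against -0.644 to 0.356, and for the hepatocyte markers, 5 of 11 higher, -0.180 to 0.462 against -0.664 to 0.193. The part of these cells in the members' values was not tested. As a sign of RNA quality, the deposited log2 value of the 3' actin control minus that of the 5' control had a mean of 1.40738 on the iron-deficient and 1.40846 on the control arrays, a difference of -0.00108 or -1.28 within-group SDs. For Gapdh the means were 1.16963 and 1.16974, a difference of -0.000109 or -1.65 SDs. Both were lower on the iron-deficient arrays, the diets overlapped in both, and their part in the members' values was not tested.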

How the data were processed

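Liver RNA of 4 rats per diet was measured on Affymetrix rat arrays, and per the labels 2 ug of total RNA went into biotin-labelled cRNA. The authors deposited log2 values, 1 for each of 31099 probe sets on every array. The scale was read from the values themselves, and the summarisation and normalisation steps are not stated in the labels or series text. Control probe sets (57) were left out, leaving 31042, of which 20826 carried 1 symbol, 436 several and 9780 none, and 20758 symbols were matched by gene identifier. No array was dropped and nothing was imputed.

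The deposited log2 values were fitted per probe set in R 4.3.3 with limma 3.58.1 (lmFit, then eBayes), iron-deficient minus control, without a replicate block. P-values were adjusted by Benjamini-Hochberg over the 31042 probe sets, and the threshold was 0.05. The code was tested on simulated data. The members and lists were chosen with earlier results of these data known, so no p adjusted over a list and no test of a list is given. Values on every array are given for members at an unadjusted p under 0.05 or without overlap, and otherwise for the 2 members of a class with the largest absolute standardised difference. Other pathway genes and markers were named at an unadjusted p under 0.05 without overlap, at most 4 per list. Lower markers of the endothelial, stellate cell, Kupffer cell and erythroid lists, and Gadd45g, were added after their values were seen. The labels call the replicates biological and say no more, so p-values measure the spread between these arrays. Differences of 0 up to machine precision counted as ties. Alternatives were 2 quantile normalisations (rounded so that tied values were equal), median centring, a filter removing the lowest 25% of probe sets, a replicate block, trend and robust variance models, the mean or second probe set of a gene, and leaving out each array.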

Additional observations from a re-analysis of the deposited data

Results flagged for a closer look

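In 82 groups of 4 arrays (41 members on each diet), 3 held a liver far from the other 3, judged by the gap to its nearest neighbour as a share of the group's range; chance gives about 1 in 20 such groups. Fas in iron-deficient replicate 2 was the highest of its group, with a gap of 0.960 of the range, at 1.03 SDs above the control mean. Htra2 in control replicate 3 was the lowest of its group, with a gap of 0.882, at -1.92 SDs from the control mean. Bcl2 in iron-deficient replicate 4 was the lowest of its group, with a gap of 0.878, at 0.242 SDs.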

How the results depend on the processing

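No member passed the adjusted threshold as deposited. There was 1 after quantile normalisation (Diablo, 2.44% of members against 5.47% of all genes) and 1 with a gene's probe sets averaged (Htra2, 2.44% against 0.309%), where fewer features were tested. Members at an unadjusted p under 0.05 numbered 5 as deposited, 2 after median centring (4.88%, against 2.16% of all genes), 3 with the second probe set (7.32% against 12.5%) and 4 to 9 with 1 array left out (all genes 9.77% to 14%). Members without overlap numbered 3 as deposited, 0 after median centring (all genes 0.724%), 0 after quantile normalisation without Hamp (all genes 3.19%) and 3 to 7 with 1 array left out (all genes 10% to 13.7%), where fewer arrays were compared. Members that read higher numbered 19, against 29 after quantile normalisation (70.7%, all genes 55.8%) and 38 after median centring (92.7%, all genes 90.8%). The other pathway genes at an unadjusted p under 0.05 numbered 29, against 23 after quantile normalisation (19.7%, all genes 20.4%) and 18 with Hamp left out of it (15.4%, all genes 11.6%). They numbered 6 after median centring (5.13%, all genes 2.16%) and 16 to 27 with 1 array left out (all genes 9.77% to 14%). The trend and robust models change only the variance, and the filter on dim probe sets only which features are kept. None of them could change a member's direction. The values given below after a change of sign are deposited-scale differences, iron-deficient minus control. Apart from the shared shift of median centring, the cause was not tested.

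After quantile normalisation 20 members changed sign: Casp1 -0.000229, Casp2 0.000187, Bak1 3.8e-05, Bmf -0.000202, Bbc3 -2.82e-05, Bcl2l1 0.00029, Bcl2l2 0.000115, Birc2 0.00102, Birc3 0.000254, Apaf1 6.21e-05, Diablo 0.000697, Htra2 0.000452, Aifm1 0.000651, Faslg -0.000122, Tradd 0.000139, Tnfsf10 0.000111, Cflar 0.000245, Dffa 5.9e-06, Perp 0.00123 and Gadd45b -9.01e-05. With Hamp left out 16 did: Casp1 -0.000254, Casp2 8.86e-05, Bak1 1.69e-05, Bmf -0.00022, Bbc3 -0.000275, Bcl2l1 0.000106, Birc2 0.00043, Birc3 0.000144, Apaf1 6.94e-06, Diablo 0.000365, Htra2 0.000225, Faslg -0.000122, Ripk1 -8.57e-05, Cflar 8.91e-05, Perp 0.000715 and Gadd45b -0.000193. Median centring turned 19: Casp2 4.47e-05, Casp8 4.5e-05, Casp9 4.86e-05, Bak1 4.98e-05, Bik 4.93e-05, Bcl2l1 4.59e-05, Bcl2l2 4.86e-05, Birc3 3.99e-05, Apaf1 3.95e-05, Diablo 3.25e-05, Htra2 3.73e-05, Aifm1 4.41e-05, Fadd 4.43e-05, Tradd 1.54e-05, Tnfsf10 2.37e-05, Cflar 8.14e-07, Tnfrsf12a 4.97e-05, Dffa 3.17e-05 and Perp 1.89e-05. With the second probe set 5 changed sign: Casp2 9.26e-05, Casp8 1.97e-06, Casp9 6.38e-07, Bok -5.35e-07 and Cflar 2.72e-05, and with probe sets averaged Casp2 did, at 4.34e-05. Leaving out 1 array gave both signs in 10 members: Casp6 -1.46e-06 to 2.52e-06, Bak1 -1.93e-06 to 1.26e-07, Bid -5e-09 to 1.45e-06, Bad -2.48e-06 to 5.27e-06, Bik -2.53e-06 to 3.49e-08, Bmf -6.19e-05 to 8.26e-05, Bcl2l1 -1.8e-05 to 7.28e-06, Bcl2l2 -6.19e-06 to 9.76e-07, Tradd -5.9e-05 to 3.34e-06, Tnfrsf12a -1.24e-05 to 1.05e-05.

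Of the other pathway genes named, these changed sign after quantile normalisation: Gsdmd 0.000328 and Dapk3 0.000498. With Hamp left out they were Gsdmd 0.000209, Chuk -0.00436, Dap -0.000443, Dapk3 0.000191, Api5 -0.000133 and Vdac3 -0.0014, and after median centring Lmnb2 3.55e-05 and Il1b 3.83e-05. Quantile normalisation left Chuk and Vdac3 with a difference of 0.

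The replicate numbers shared by the diets showed no sign of pairing the livers, though so few correlations cannot exclude it. The deviations of same-numbered livers correlated at -0.111, 0.0245, -0.0251 and -0.0773, and 1 of 4 correlated best with its own number. With the replicate number as a block, 9 members had an unadjusted p under 0.05 (22%, against 11.1% of all genes) and 0 passed the adjusted threshold, as did 0% of all genes, and the limma adjusted p of Tfrc was 0.176. Signal over background is not given by the deposited table, and no member's mean lay below the arrays' 25th percentile.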
